A study of Mus musculus with 20 samples.

Results

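Immunoglobulin genes were measured in liver RNA of 20 female mice, as the part of the transcriptome that plasma cells and other B lymphocytes contribute. An antibody consists of heavy and light chains, each with a variable (V) region that binds antigen and a constant region that sets the isotype of the heavy chain (IgM, IgD, IgG, IgA or IgE) or the kappa or lambda type of the light chain. Each B lymphocyte joins its own V gene to smaller gene segments, and all of its descendants, plasma cells included, carry that V gene. Plasma cells devote much of their RNA to these genes, and the J chain links IgM and IgA molecules into polymers.

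The members were all rows of the raw count table with the symbol of an immunoglobulin V or constant gene, or Jchain, that held at least 20 counts over the 20 libraries. They were 151 of 55487 genes: 67 heavy-chain V genes, 69 kappa V genes, 3 lambda V genes, 7 heavy constant genes, 4 light constant genes and Jchain. Another 208 rows with such symbols were below 20 counts and held 491 counts together, 0.548% of the counts of all rows with these symbols. The members with the fewest counts were Ighv1-20 and Ighv7-1 with 23 each and Igkv4-50 with 24, and those just outside were Ighv14-1 and Igkv4-80 with 19 each. Ighe, the constant gene of IgE, had 2 counts in all libraries together and was not a member. All heavy-chain genes lie on chromosome 12, the kappa genes on chromosome 6, and the lambda genes on chromosome 16.

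All mice were C57BL/6J, 8 weeks old at the start and 28 weeks old at the end, with 1 liver library each. The 5 chow-fed mice received chow throughout. The other 15 received a high-fat diet (HFD) for 10 weeks and then, for 10 more weeks, HFD in which 50% of the protein came from fishmeal (5 mice), salmon filet (6 mice) or beef (4 mice). Chow and HFD differ in more than their fat, so a difference from chow concerns the whole diet. Mouse 31 is labelled as fed salmon, while the header of the count table calls it beef. It was kept as salmon, as labelled. With it as beef all 4 groups would hold 5 mice, the equal group size of the study's design, so results for salmon and beef rest on this choice and are given both ways where they differ.

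V genes resemble each other closely, so the reference sequences of those that carried the V results are shown first. Igkv4-55, Igkv12-44, Ighv1-80 and Ighv9-3 held the most V counts in chow mouse 2, Ighv1-53 led in chow mouse 10 and salmon mouse 22, Ighv6-3 led in 3 mice, Igkv10-96 in 4 mice (in beef mouse 40 by a tie) and Igkv5-39 in 3 mice. Each line gives the last 290 coding bases of the germline gene in GENCODE M21 (GRCm38), 5′ to 3′, with capitals for bases that differ from the most similar other V gene. All 8 genes are on the minus strand.
Ighv1-80: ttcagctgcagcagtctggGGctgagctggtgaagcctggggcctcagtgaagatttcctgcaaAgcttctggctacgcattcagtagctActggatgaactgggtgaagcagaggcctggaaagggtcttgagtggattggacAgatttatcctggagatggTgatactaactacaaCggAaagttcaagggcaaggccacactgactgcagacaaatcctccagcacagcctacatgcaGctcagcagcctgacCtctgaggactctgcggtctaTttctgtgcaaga
Ighv9-3: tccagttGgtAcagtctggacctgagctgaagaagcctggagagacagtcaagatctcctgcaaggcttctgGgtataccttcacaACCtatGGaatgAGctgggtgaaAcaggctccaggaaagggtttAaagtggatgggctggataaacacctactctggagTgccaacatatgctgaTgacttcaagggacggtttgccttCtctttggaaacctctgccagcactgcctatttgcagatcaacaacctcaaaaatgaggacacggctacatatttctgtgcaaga
Ighv1-53: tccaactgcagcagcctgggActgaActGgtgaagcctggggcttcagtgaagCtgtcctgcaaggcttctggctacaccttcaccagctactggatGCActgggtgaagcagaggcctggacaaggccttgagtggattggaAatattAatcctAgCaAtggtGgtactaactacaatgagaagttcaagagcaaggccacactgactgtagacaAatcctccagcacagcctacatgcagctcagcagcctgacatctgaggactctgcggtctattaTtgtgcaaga
Ighv6-3: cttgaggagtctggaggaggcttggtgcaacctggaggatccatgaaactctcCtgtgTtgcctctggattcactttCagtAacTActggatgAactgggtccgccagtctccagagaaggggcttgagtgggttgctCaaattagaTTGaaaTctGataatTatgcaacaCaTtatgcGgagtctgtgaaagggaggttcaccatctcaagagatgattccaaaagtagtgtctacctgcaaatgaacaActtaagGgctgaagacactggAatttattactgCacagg
Igkv4-55: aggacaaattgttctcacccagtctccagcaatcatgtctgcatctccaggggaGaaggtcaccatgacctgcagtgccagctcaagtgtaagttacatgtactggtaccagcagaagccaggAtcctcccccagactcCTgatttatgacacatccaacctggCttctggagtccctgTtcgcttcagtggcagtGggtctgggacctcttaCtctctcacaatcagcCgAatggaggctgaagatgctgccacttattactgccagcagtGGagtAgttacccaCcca
Igkv12-44: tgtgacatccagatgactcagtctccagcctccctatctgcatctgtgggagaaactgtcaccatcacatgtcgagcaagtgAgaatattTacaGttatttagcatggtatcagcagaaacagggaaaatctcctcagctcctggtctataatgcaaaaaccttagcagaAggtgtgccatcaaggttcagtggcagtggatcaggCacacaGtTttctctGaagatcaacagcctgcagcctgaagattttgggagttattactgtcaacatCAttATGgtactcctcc
Igkv10-96: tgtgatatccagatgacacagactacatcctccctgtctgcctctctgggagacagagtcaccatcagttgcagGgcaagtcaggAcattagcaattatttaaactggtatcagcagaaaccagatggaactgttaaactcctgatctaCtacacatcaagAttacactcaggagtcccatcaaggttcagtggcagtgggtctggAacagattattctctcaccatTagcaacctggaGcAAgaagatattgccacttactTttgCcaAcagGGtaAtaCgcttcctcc
Igkv5-39: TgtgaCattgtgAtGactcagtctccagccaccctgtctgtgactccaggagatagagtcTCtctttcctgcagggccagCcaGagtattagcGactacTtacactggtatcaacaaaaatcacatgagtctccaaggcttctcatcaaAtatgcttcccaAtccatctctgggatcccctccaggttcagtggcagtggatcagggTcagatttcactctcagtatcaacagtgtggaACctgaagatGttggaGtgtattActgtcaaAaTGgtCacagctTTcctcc

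The 4 heavy-chain genes lie at chr12:115912344-115912776 (Ighv1-80), chr12:114140692-114141122 (Ighv9-3), chr12:115158403-115158835 (Ighv1-53) and chr12:114391712-114392169 (Ighv6-3). The 4 kappa genes lie at chr6:69607275-69607828 (Igkv4-55), chr6:69814631-69815154 (Igkv12-44), chr6:68631963-68632442 (Igkv10-96) and chr6:69900424-69900977 (Igkv5-39). Over the coding bases, Ighv1-80 was 95.4% identical to Ighv1-82, Ighv9-3 94.3% to Ighv9-2, Ighv1-53 95.4% to Ighv1-55 and Ighv6-3 90.9% to Ighv6-6. Among the kappa genes, Igkv4-55 was 95.7% identical to Igkv4-62, Igkv12-44 95.7% to Igkv12-41, Igkv10-96 95.4% to Igkv10-94 and Igkv5-39 90.8% to Igkv5-45.

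The reads were 50 bases long, and how reads that matched several genes were counted is not given in the sources used here. The coding sequence was therefore searched for 50-base windows that occur unchanged in a transcript of another gene. Of the 151 members, 27 had no such window, among them Ighm, Ighd, Igha, Igkc, Iglc1, Jchain and Igkv5-39, and these 27 held 63.7% of the members' counts. The share of windows found elsewhere was 18.5% in Ighv1-80, 23.2% in Ighv9-3, 57.6% in Ighv1-53, 14.0% in Ighv6-3, 54.1% in Igkv4-55, 32.9% in Igkv12-44 and 33.9% in Igkv10-96. The counts of a V gene can therefore include reads of its relatives, and rearranged V genes in lymphocytes also carry mutations that the germline sequence lacks. Igkc lies within a long non-coding RNA gene of the same strand, Gm30211, which held 128 counts.

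Counted reads per library ranged from 42526234 to 70266136, and protein coding genes took 93.2% to 95.6% of them except in beef mouse 35, with 84.3%. No 2 libraries of a group were as alike as counting noise alone would make them (41 pairs compared). The members held 89027 counts, of which chow mouse 2 alone held 42859. This library stood apart from the other 4 chow libraries in most immunoglobulin genes, so results against chow are given with and without it.

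Levels are given as CPM, the counts of a gene divided by the counted reads of its library and multiplied by 1000000, scaled with TMM factors over all libraries. Summed over all 151 members, they were 58.7, 702, 64.7, 91.0 and 78.7 CPM in chow mice 1, 2, 5, 7 and 10. In the fishmeal mice 12, 13, 14, 16 and 20 the sums were 29.0, 31.4, 27.7, 26.0 and 23.7 CPM. In the salmon mice they ran from 18.8 CPM in mouse 31 over a median of 43.4 to 50.8 CPM, and in the beef mice 32, 35, 39 and 40 they were 38.1, 43.9, 39.2 and 48.7 CPM. All 15 HFD mice lay below the lowest chow mouse, and the fishmeal mice lay below all beef mice and below all salmon mice except mouse 31. With mouse 31 as beef, the fishmeal mice lay below all salmon mice but above 1 beef mouse. The median of the chow mice was 2.07-fold that of the HFD mice, and 1.88-fold without chow mouse 2. In bulk liver RNA, fewer cells that make antibody and less antibody RNA per cell cannot be told apart.

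**Figure D1:**
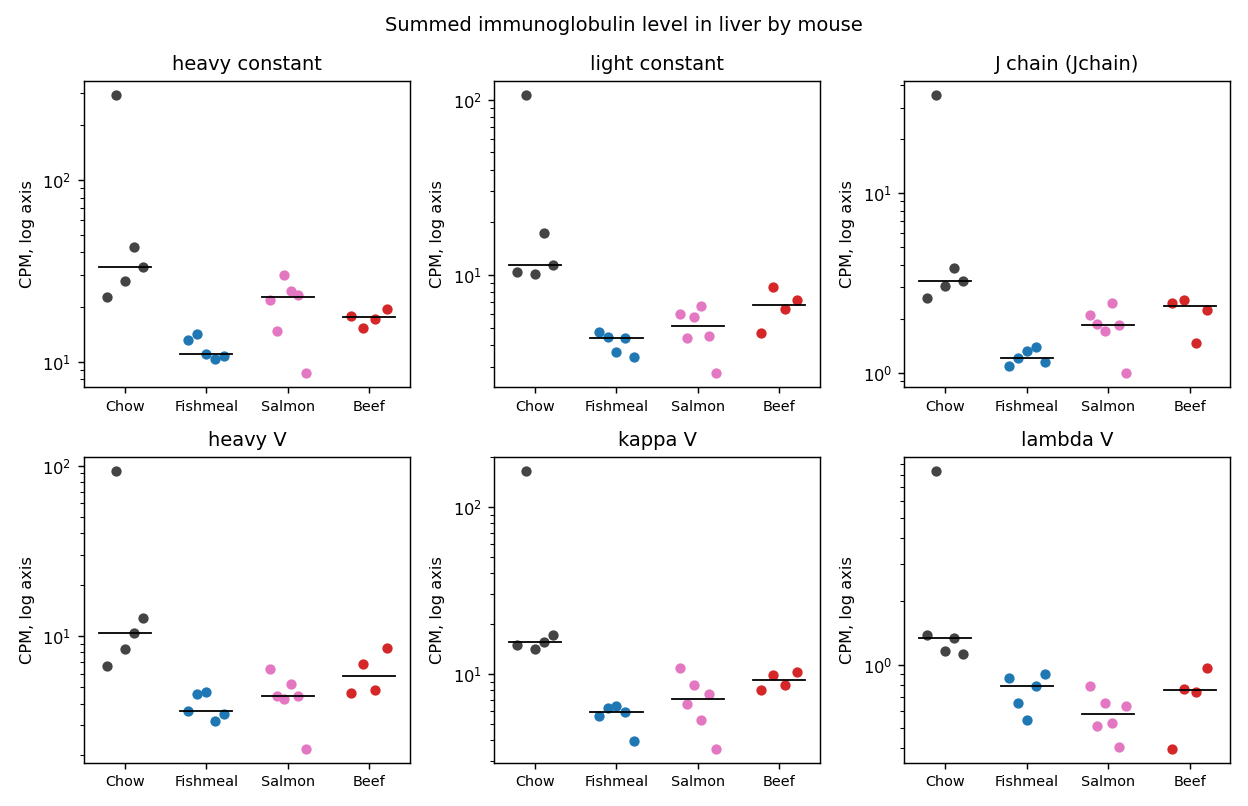
Summed CPM (log axis) of 6 classes of immunoglobulin genes in each of the 20 mice, by group, with 1 point per mouse and a line at the group median. Chow mouse 2 is the highest point of every panel, and the light constant, J chain, kappa V and lambda V sums of all 15 HFD mice lie below the lowest chow mouse.

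The classes were lower in HFD mice by similar amounts. The chow median was 2.15-fold the HFD median for heavy constant genes, 2.42-fold for light constant genes, 1.89-fold for Jchain, 2.26-fold for heavy V genes, 2.35-fold for kappa V genes and 2.02-fold for lambda V genes. Without chow mouse 2 these ratios were 1.98, 2.32, 1.83, 2.05, 2.31 and 1.90. For light constant genes, Jchain, kappa V genes and lambda V genes the chow and HFD mice did not overlap. For heavy constant genes 12 of 15 HFD mice, and for heavy V genes 13 of 15, lay below the lowest chow mouse. The sums carry no test, since the members were chosen with earlier results of these data known.

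Chow mouse 2 held 293 CPM of heavy constant genes, 106 of light constant genes, 93.3 of heavy V genes, 165 of kappa V genes and 35.3 of Jchain, which was 9.64-, 9.75-, 9.92-, 10.9- and 11.3-fold the median of the other 4 chow mice. The lambda V genes were at 8.35 CPM, or 6.68-fold. It was the highest of the 20 mice for 97 of 151 members (64.2%): all 4 light constant genes, all 3 lambda V genes, Jchain, 48 of 69 kappa V genes, 39 of 67 heavy V genes and 2 of 7 heavy constant genes. Members were chosen by counts that include this mouse, so a high level there could bring a gene in. Among the heavy constant genes the excess was largest in Ighm, which encodes the constant region of IgM, with 17111 counts or 280 CPM, 13.0-fold the median of the other chow mice, and Ighg2b was at 5.50 CPM. Igha was at 1.80 CPM (0.786-fold), Ighd at 3.77 (1.45-fold), Ighg1 at 0.590 (0.895-fold) and Ighg2c at 1.1303 CPM (1.21-fold).

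A few V genes made up much of the V counts of chow mouse 2. Igkv4-55 had 3551 counts there (58.2 CPM, 39.2-fold the median of the other chow mice), which was 80.3% of its counts in all 20 libraries. Ighv1-80 had 1467 counts (24.03 CPM, 105-fold; 88.4% of its counts), Ighv9-3 had 1036 (17.0 CPM, 63.7-fold; 81.5%) and Igkv12-44 had 967 (15.8 CPM, 124-fold; 92.0%). Igkv5-45, the closest relative of Igkv5-39, had 261 of its 268 counts in this mouse. In contrast, Ighv6-3 stood at 0.491 CPM in chow mouse 2, 1.08-fold the median of the other chow mice.

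Summed over each list, genes that mark the cells did not stand apart in chow mouse 2 to that extent. The summed level of 8 plasma cell genes (Mzb1, Tnfrsf17, Derl3, Pou2af1, Irf4, Slamf7, Eaf2 and Ccr10) was 7.40 CPM in chow mouse 2 and 4.73 to 7.78 in the other chow mice, with 3.71 to 6.69 in HFD mice. The summed level of 17 B lymphocyte genes was 36.9 CPM in chow mouse 2, 20.8 to 41.8 in the other chow mice and 14.3 to 24.9 in HFD mice. Of the plasma cell genes, Mzb1 (0.278 CPM) and Tnfrsf17 (0.115 CPM) were at low levels even in chow mouse 2. The sum of 7.40 CPM therefore says little about these genes. Derl3 was at 0.655 CPM there, against a mean of 2.03 ± 1.64 (SD, n = 5) over all chow mice, mouse 2 included. None of the 8 was at 0 in all libraries. Tnfrsf17 was at 0 in the other 4 chow mice, so this gene did set chow mouse 2 apart, at a low level.

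In HFD versus chow, 33 of the 49 members that passed the filter on low counts fell and none rose (edgeR, Benjamini-Hochberg adjusted over 17120 genes). Of all genes tested, 9.75% were called and 5.21% fell. The other 102 members had too few counts to be tested, and a member could pass the filter through its level in chow alone, so these shares do not describe all 151. The median log2 fold change was -1.98 over the 49 members and 0.00 over all genes tested. Without chow mouse 2, 18 of 50 tested members fell, all of them among the 33, with a median of -0.96, while 3.62% of all genes fell. Unadjusted p was under 0.05 for 36 of the 49 members and for 24.4% of all genes. With every gene that had a count in the test, 71 members fell, and 2.61% of all genes.

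Of the heavy constant genes, 5 of 7 fell with all mice and 3 of 7 without chow mouse 2. Ighm was at 16.0, 280, 20.0, 27.8 and 23.2 CPM in the chow mice and at 6.79 to 26.5 CPM in HFD mice, with a median of 12.4. The groups overlapped, since 4 HFD mice, all of the salmon group, reached or passed the level of chow mouse 1. Its log2 fold change was -2.43 ± 0.45 (SE; adjusted p = 0.0012, edgeR), and without chow mouse 2 it was -0.67 with an adjusted p of 0.165, so the call rested on that mouse.

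Igha, the constant gene of IgA, fell in both fits. It was at 1.251, 1.80, 2.98, 5.15 and 1.61 CPM in chow mice 1, 2, 5, 7 and 10 and at 0.109 to 0.981 CPM in HFD mice, with no overlap. Its log2 fold change was -2.28 ± 0.33 (SE), and -2.39 without chow mouse 2 (adjusted p = 0.0003, edgeR), so the call was kept without that mouse.

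Ighd encodes the constant region of IgD, which naive B lymphocytes carry beside IgM. It was at 2.91, 3.77, 2.30, 5.45 and 1.57 CPM in chow mice and at 0.404 to 2.17 CPM in HFD mice, a log2 fold change of -1.50 ± 0.29 (SE), and -1.43 without chow mouse 2. The chow level of Ighg1, of the IgG1 isotype, was set by chow mouse 10, with 4.71 CPM against 0.534, 0.590, 0.226 and 0.784 in the others and 0 to 0.947 in HFD mice. Its change of -2.79 ± 0.59 (log2, SE) became -1.43 without that mouse (adjusted p = 0.129, edgeR), and the call was lost. Ighg2b, of IgG2b, fell by 1.99 (SE 0.39) on the log2 scale with all mice, and without chow mouse 2 the change was -1.13 with an adjusted p of 0.0627.

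Ighg2c and Ighg3 passed no test in HFD versus chow, at -0.96 ± 0.62 (log2, SE; adjusted p = 0.361) and -0.55 ± 0.63 (adjusted p = 0.639), and Ighg3 was at 0.25 without chow mouse 7. Ighg2c was at 0.931, 1.1303, 1.18, 0.932 and 0.647 CPM in chow mice. Among HFD mice it ran from 0.0268 to 0.781 CPM except in beef mouse 35, with 3.63 CPM. Without beef mouse 35 the log2 fold change of Ighg2c was -1.77, with an adjusted p of 0.003 (edgeR), and DESeq2 called it with all mice.

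All 4 light constant genes fell, with and without chow mouse 2. Igkc, the only constant gene of kappa chains, was at 8.13, 98.0, 8.57, 13.9 and 10.1 CPM in chow mice and at 1.90 to 7.67 CPM in HFD mice. The groups did not overlap, and the log2 fold change was -2.70 ± 0.39 (SE), or -1.25 (adjusted p = 0.0028) without chow mouse 2. Of the lambda constant genes, Iglc3 was at 1.129, 2.59, 0.679, 1.59 and 0.560 CPM in chow mice and at most at 0.525 in HFD mice, a log2 fold change of -1.84 (SE 0.26). Iglc1 fell by 2.21 and Iglc2 fell by 1.85 on the log2 scale. Iglc3 shares 32.1% of its windows with another gene, so reads may be split between it and its relatives.

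Jchain was at 2.62, 35.3, 3.03, 3.86 and 3.24 CPM in chow mice and at 0.996 to 2.55 CPM in HFD mice, without overlap. The log2 fold change was -2.48 ± 0.40 (SE), and -0.89 without chow mouse 2 (adjusted p = 0.0155, edgeR).

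**Figure D2:**
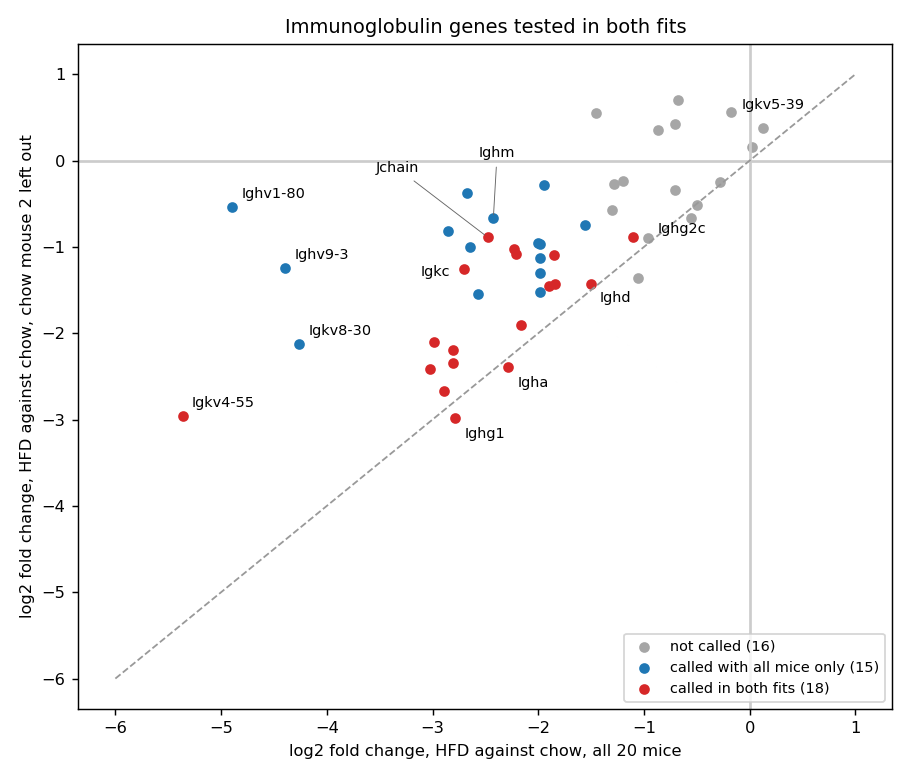
Log2 fold change of HFD against chow for the 49 members tested in both fits, with all 20 mice (horizontal axis) and with chow mouse 2 left out (vertical axis), 1 point per gene (18 called in both fits in red, 15 called with all mice only in blue, 16 not called in grey) and a dashed line where both are equal. Igha, Ighd and Ighg1 lie near the line, whereas Ighv1-80 moves from -4.89 to -0.54.

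Of the V genes, 7 of the 12 heavy, 14 of the 23 kappa and 2 of the 2 lambda genes tested fell, and 10 of these 23 calls were kept without chow mouse 2. The 10 largest changes split into those called also without chow mouse 2 and those that were not. Of the former, Igkv5-43 lost its call under 1 other alternative, and 56.7% of its windows occur in other genes. Igkv4-55 (-5.36 with all mice, -2.96 without chow mouse 2, log2), Ighv1-53 (-3.02 and -2.41), Igkv1-110 (-2.98 and -2.10), Igkv5-43 (-2.89 and -2.67), Igkv6-23 (-2.81 and -2.20) and Igkv14-126 (-2.80 and -2.34) fell in both fits. Ighv1-80 (-4.89 and -0.54), Ighv9-3 (-4.39 and -1.25), Igkv8-30 (-4.26 and -2.12) and Ighv3-6 (-2.85 and -0.81) were called with all mice only. Igkv5-39, with a log2 fold change of -0.18 (SE 0.56; 0.56 without chow mouse 2), and Ighv6-3, with -0.28 (SE 0.56), were tested and not called.

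Only 6 of the 151 members had every HFD mouse below every chow mouse: Jchain, Igkc, Igha, Iglc3, Igkv1-110 and Igkv6-23. Among all genes with at least 20 counts, 0.728% did. Igkv1-110 was at most at 0.251 CPM in HFD mice and at least at 0.332 in chow mice, and Igkv6-23 at most at 0.162 against at least 0.198. The HFD median lay below the chow median for 129 of 151 members, and for 125 without chow mouse 2, against 50.0% and 50.6% of all genes with at least 20 counts. The limit of 20 counts was applied over all libraries, chow mouse 2 included. A member could therefore pass it through high counts in chow mice alone.

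Each HFD diet was next compared with the same 5 chow mice, so these comparisons share their controls. In fishmeal versus chow, 16 of 36 tested members fell, while 3.38% of all genes were called and 1.93% fell. In salmon versus chow 18 of 39 members fell, while 4.46% of all genes were called and 2.32% fell. In beef versus chow 2 of 49 members fell, while 2.48% of all genes were called and 217 of 16559 fell. No member rose in any of them, whereas 1.44%, 2.14% and 1.17% of all genes rose. Unadjusted p was under 0.05 for 28, 33 and 31 members, and for 16.9%, 21.5% and 17.8% of all genes. The beef group has 4 mice, and DESeq2 called 18 of the 49 members there, with no adjusted p for 14. With mouse 31 as beef, 10 of 36 tested members fell in beef versus chow, among them Igha, Ighd, Iglc3 and Igkv4-55, and 9 of 38 fell in salmon versus chow. The shares of all genes called with mouse 31 as beef are not reported here.

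Igha was called in all 3 comparisons with all mice. Without chow mouse 2 the call for beef was lost (-2.08, log2; adjusted p = 0.0732, edgeR). With all mice its log2 fold change was -2.37 ± 0.46 (SE; adjusted p = 0.0145) for fishmeal, -2.45 ± 0.44 (adjusted p = 0.0111) for salmon and -1.98 ± 0.45 (adjusted p = 0.0464) for beef (edgeR). It was at 0.641, 0.349, 0.149, 0.612 and 0.764 CPM in the fishmeal mice, at 0.109 to 0.792 CPM with a median of 0.475 in the salmon mice, and at 0.379, 0.769, 0.464 and 0.981 CPM in the beef mice. None of these reached the lowest chow mouse, at 1.251 CPM. Igkv14-111 was the other member called for beef, at -4.07 (log2; adjusted p = 0.0477), and it had 0, 2, 1 and 3 counts in the 4 beef mice. Both genes fell with mouse 31 as beef as well.

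Igkc fell by 3.15 for fishmeal (adjusted p = 0.0276) and by 2.71 for salmon (adjusted p = 0.0333) on the log2 scale, and was at -2.29 for beef (adjusted p = 0.15; edgeR). With mouse 31 as beef Igkc was at -2.56 for salmon (adjusted p = 0.0547), and the call was lost. Jchain fell by 2.98 for fishmeal (adjusted p = 0.0453), and was at -2.39 for salmon (adjusted p = 0.0566) and -2.16 for beef (adjusted p = 0.191). Ighm passed the threshold in none of the 3, with -2.99, -2.06 and -2.48 and adjusted p of 0.0554, 0.111 and 0.162. Ighg2c fell by 1.89 for salmon (adjusted p = 0.0013) and by 2.10 for fishmeal (adjusted p = 0.0441), and was at 0.34 for beef (adjusted p = 0.826), where mouse 35 holds its highest level.

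Without chow mouse 2, 7 members fell for fishmeal and 10 for salmon. The shares of all genes called in these fits are not reported here, so the counts are not set against them. For fishmeal these were Ighm (-1.22; adjusted p = 0.0141), Igkc (-1.69), Jchain (-1.37), Igha (-2.47), Igkv1-110, Igkv6-23 and Igkv4-55 (edgeR). Ighm thus passed the threshold for fishmeal only when chow mouse 2 was left out. For salmon they were Igha, Igkc, Ighg2c, Iglc1, Iglc3, Iglv1, Igkv1-110, Igkv1-135, Igkv6-23 and Igkv8-30. For beef Igkv14-111 was called.

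Between the HFD diets no member was called. In fishmeal versus salmon 20 members were tested (3 at an unadjusted p under 0.05), in fishmeal versus beef 24 (7 unadjusted) and in salmon versus beef 25 (5 unadjusted), and DESeq2 also called none. Of all genes tested, 0.157%, 0.00607% and 0.0% were called (0.00604% as higher in fishmeal than in salmon), and 4.24%, 2.33% and 3.71% had an unadjusted p under 0.05. Jchain was at 1.096, 1.21, 1.33, 1.399 and 1.15 CPM in the fishmeal mice and at 2.46, 2.55, 1.46 and 2.24 CPM in the beef mice as labelled, all of them above all fishmeal mice. Mouse 31, at 0.996 CPM, was below all fishmeal mice, so with it as beef the fishmeal and beef mice overlapped. The salmon mice other than mouse 31 were at 1.72 to 2.46 CPM, all above the fishmeal mice. With mouse 31 as beef, Ighm was at -1.08 (log2; adjusted p = 0.126, edgeR) in fishmeal versus salmon. Jchain was at -0.71 there (adjusted p = 0.189), and neither was called. For fishmeal versus beef as labelled the change of Jchain was -0.82 ± 0.20 (log2, SE; adjusted p = 0.747, edgeR). Igkc showed -0.87 (SE 0.21; adjusted p = 0.72) and Ighg2c -2.45 (SE 0.85; adjusted p = 1) in the same comparison, the latter with mouse 35 in the beef group.

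Ighm held most of the heavy constant counts in all 20 mice, from 59.2% in beef mouse 35 to 95.5% in chow mouse 2. Igha held 0.614% to 12.1% and the 4 IgG genes together 1.98% to 27.8%. On the TPM scale, which divides by gene length and so allows genes to be compared, Igkc was at or above Ighm in 14 of 20 mice, all 5 chow mice among them. The median levels were 49.2 TPM for Igkc and 31.8 for Ighm in chow mice, and 17.9 and 17.8 TPM in HFD mice. Median Ighd and Igha were at 3.80 and 1.86 TPM in chow and at 1.393 and 0.492 TPM in HFD mice.

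**Figure D3:**
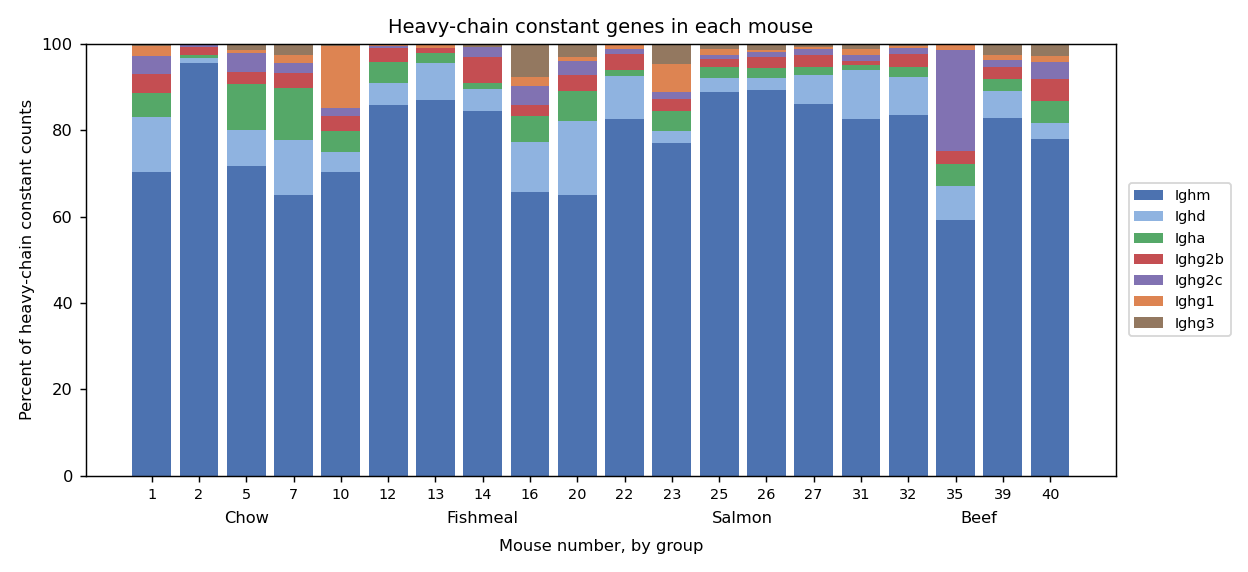
Percent of heavy constant counts on each of the 7 heavy constant genes in each mouse, with mice in order of group. Ighm takes the largest part of every bar, Ighg2c takes 23.5% in beef mouse 35 and Ighg1 takes 14.2% in chow mouse 10.

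The IgG part differed from mouse to mouse. In beef mouse 35 Ighg2c held 23.5% of heavy constant counts, compared with 1.309% to 4.004% in the other beef mice. In chow mouse 10 Ighg1 held 14.2%, compared with 0.201% to 2.35% in the other chow mice, and in fishmeal mouse 16 Ighg3 held 7.61%. These mice belong to 3 different groups.

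The share of Igha among heavy constant counts was 6.75% ± 4.65 (SD, n = 5) in chow mice and 3.35% ± 1.89 (SD, n = 15) in HFD mice. The 2-sided exact permutation test over mice gave p = 0.0476, and 0.533 after adjustment over the 28 tests of composition. The chow share without chow mouse 2 was 8.28% ± 3.63 (SD, n = 4; exact permutation test, adjusted p = 0.133). In chow mouse 2 Igha held 0.614% (Wilson 95% interval 0.51 to 0.74) beside its large amount of Ighm. The lambda constant genes held 15.2% ± 5.89 (SD, n = 5) of light constant counts in chow and 18.7% ± 7.02 (SD, n = 15) in HFD mice (exact permutation test, adjusted p = 0.81). It was 17.0% ± 4.88 (SD, n = 4) in the chow mice other than mouse 2. Fishmeal mice had the highest mean lambda share, 23.3% ± 6.90 (SD, n = 5), against 14.98% ± 4.56 (SD, n = 4) in beef mice (exact permutation test, p = 0.0952, adjusted p = 0.533). With mouse 31 as beef the beef share was 18.3% ± 8.33 (SD, n = 5), and the difference was 5.02 in place of 8.30 percentage points. The salmon share was then 14.4% ± 2.46 (SD, n = 5), in place of 17.3% ± 7.26 (SD, n = 6). None of the 28 tests passed after adjustment.

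The leading V genes varied from mouse to mouse. Over the 20 mice, 14 different heavy V genes and 11 different kappa V genes held the most counts of their class. The leading gene held 8.00% to 32.6% of heavy V counts, with a median of 14.8%, and 6.59% to 40.0% of kappa V counts, with a median of 15.45%. Of the leading genes, Ighv6-3 led in chow mouse 1, fishmeal mouse 12 and beef mouse 40, and Igkv10-96 led in fishmeal mouse 12, salmon mouse 31 and beef mice 35 and 40. In beef mouse 40 Igkv19-93 tied with Igkv10-96 at 59 counts, and the lead was counted for Igkv10-96. The mean share of the leading heavy V gene was 16.7% in chow and 16.3% in HFD mice (exact permutation test, adjusted p = 0.952), and that of the leading kappa V gene was 20.9% and 16.4% (adjusted p = 0.81). The chow means without chow mouse 2 were 14.4% and 17.4%, so that the heavy V share was then lower in chow than in HFD mice.

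**Figure D4:**
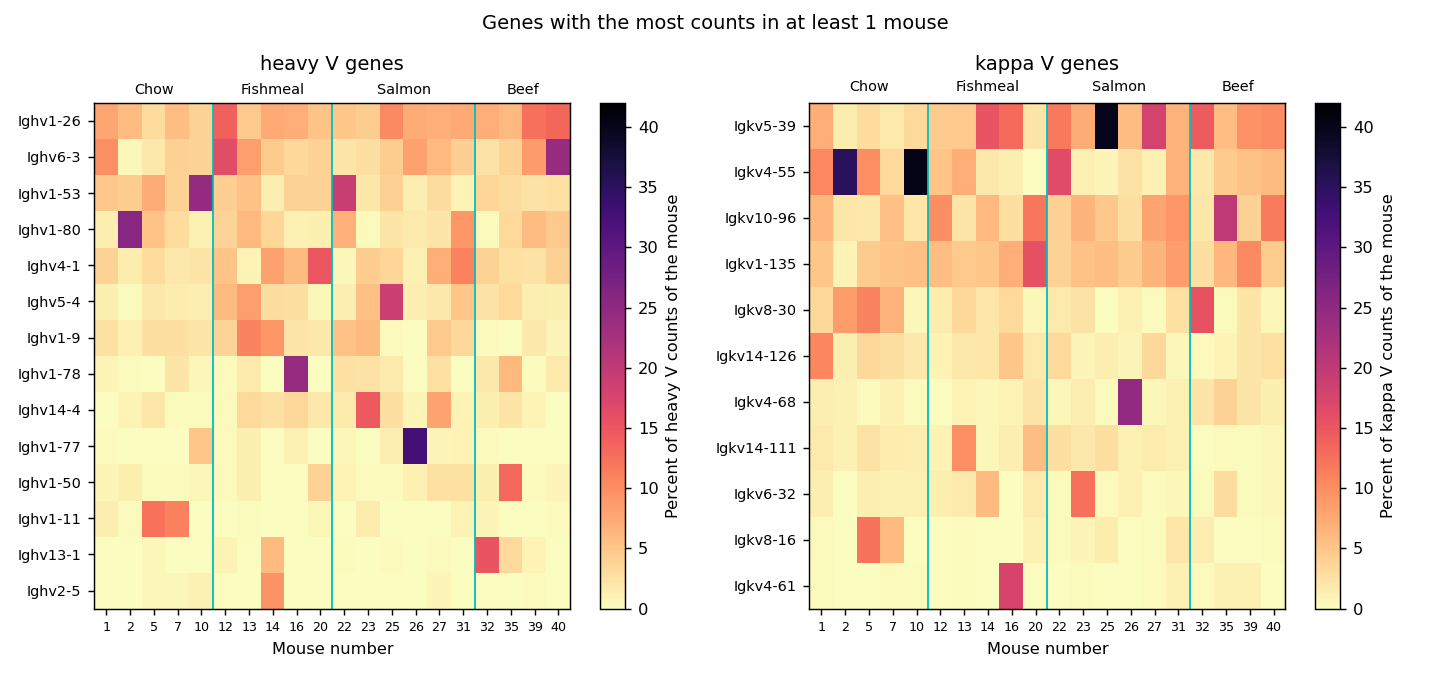
Percent of heavy V counts (left) and kappa V counts (right) in each mouse on each V gene that led in at least 1 mouse, with darker colours for larger shares and lines between the groups. Dark cells stand alone in their row or recur in few mice, as for Ighv1-77 in salmon mouse 26 (32.6%) and Igkv4-55 in chow mice 2 (35.1%) and 10 (40.0%). Igkv19-93, tied for the lead in beef mouse 40, is not shown.

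Some of the mice had most of their V counts on 3 genes. For heavy chains these were salmon mouse 26, with 59.4% on 3 genes, and chow mouse 10, with 51.8%. In salmon mouse 26 Ighv1-77 held 94 of 288 heavy V counts (32.6%, Wilson 95% interval 27.5 to 38.3), whereas 9 of the 20 mice had no count of this gene. In chow mouse 10 Ighv1-53 held 24.4% and Ighv1-12 22.4%. In chow mouse 2 Ighv1-80 held 25.8% (24.6 to 26.9) and Ighv9-3 18.2%, and its 3 leading genes held 49.8%.

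For kappa chains, 3 mice passed 50% on 3 genes: chow mouse 10 with 61.7%, salmon mouse 25 with 57.6% and chow mouse 2 with 53.3%. Igkv4-55 held 40.0% (37.0 to 43.1) in chow mouse 10 and 35.1% (34.2 to 36.1) in chow mouse 2, but 3.16% in chow mouse 7 and no count in fishmeal mouse 20. In salmon mouse 25 Igkv5-39 held 180 of 453 kappa V counts (39.7%, 35.3 to 44.3). This gene had no window shared with another transcript. The intervals cover counting error only.

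Since libraries with more V counts show more genes, the counts of each mouse were thinned to 120 heavy and 177 kappa V counts, and the effective number of genes (inverse Simpson index) was averaged over 200 draws. For heavy V genes it ran from 6.16 in salmon mouse 26 and 8.04 and 8.47 in chow mice 10 and 2 to 23.8 in salmon mouse 27. For kappa V genes it ran from 4.99 in chow mouse 10, 5.39 in salmon mouse 25 and 6.64 in chow mouse 2 to 28.9 in chow mouse 7. The chow group thus held both the lowest and the highest kappa value. Chow mouse 10 was narrow in V use, while its summed level over all members, 78.7 CPM, was the median of the chow group. Its sums of heavy V genes (12.8 CPM) and kappa V genes (17.1 CPM) were the highest of the chow mice after chow mouse 2.

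**Figure D5:**
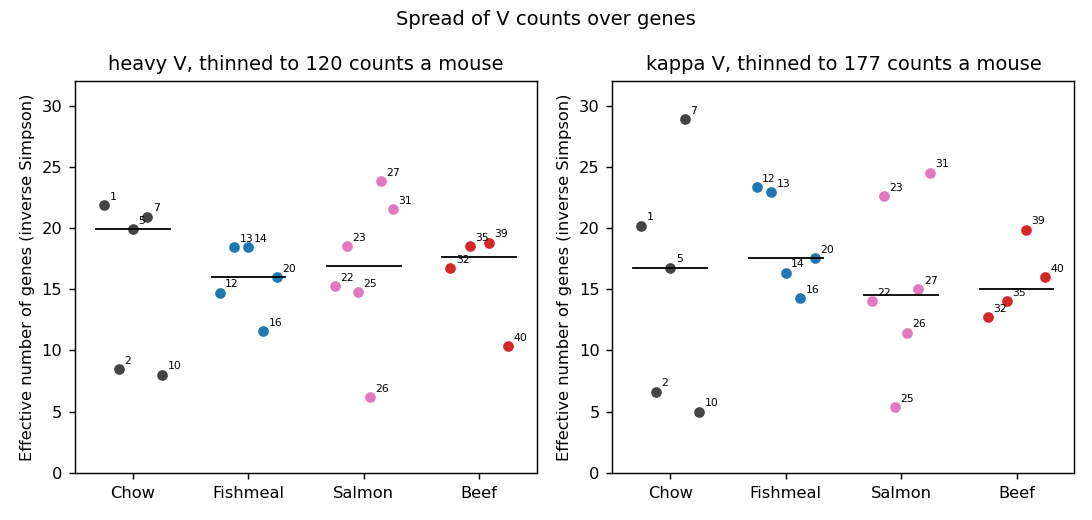
Effective number of V genes (inverse Simpson index at equal counts) in each mouse, for heavy V genes (left) and kappa V genes (right), with mouse numbers beside the points and a line at the group median. Low values occur in chow mice 2 and 10 and in salmon mice 25 (kappa) and 26 (heavy).

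The largest V family, Ighv1 with 34 members, held 60.3% ± 10.3 (SD, n = 5) of heavy V counts in chow and 47.8% ± 10.6 (SD, n = 15) in HFD mice, with a range of 46.8% to 75.2% in chow and 34.9% to 68.8% in HFD mice, so the groups overlapped. The Igkv4 family, with 16 members, held 29.8% ± 13.7 (SD, n = 5) and 18.9% ± 6.43 (SD, n = 15) of kappa V counts. Single genes made up much of these shares in chow mice 2 and 10, where Igkv4-55 alone held 35.1% and 40.0% of kappa V counts. Of heavy V counts, Ighv1-80 held 25.8% in chow mouse 2, and Ighv1-53 held 24.4% and Ighv1-12 22.4% in chow mouse 10. Shares of families were not tested.

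Other genes of the antibody pathway were described by lists, for HFD versus chow, where 5.21% of all genes tested fell and 4.54% rose. Of 17 tested genes known from plasma cells, 3 fell: Irf4 (-0.89, log2), Pou2af1 (-1.31), both of them transcription regulators of B cells and plasma cells, and Tnfrsf13b (-0.94), a receptor for survival factors. Without chow mouse 2 only Pou2af1 stayed below the threshold, with an adjusted p of 0.028 (edgeR). Sdc1 and Xbp1, which hepatocytes also make, were at 244 ± 22.9 (SD, n = 5) and 146 ± 20.6 CPM in chow mice and at 264 ± 65.1 (SD, n = 15) and 118 ± 30.3 CPM in HFD mice, and neither was called. Of the 8 plasma cell genes summed above, 5 were tested and 2 fell.

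Of the 17 B lymphocyte genes, 11 fell and none rose. They include Ms4a1 (-1.38, log2), Cd79a (-1.40), Cd79b (-1.09), Pax5 (-1.01), Fcer2a (-1.67) and Cr2 (-1.78), and 8 of the 11 fell without chow mouse 2 as well. The summed level of the 17 genes had a chow median of 1.67-fold the HFD median, with 11 of 15 HFD mice below the lowest chow mouse. Of 12 tested T lymphocyte genes, 6 fell. Their sum was 5.00 to 8.60 CPM in chow mice and 2.39 to 5.82 CPM in HFD mice, a ratio of medians of 1.83. Immunoglobulin genes were therefore lower beside lower B and T lymphocyte genes, and the part of cell numbers in the result was not tested.

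Among genes that move antibodies or bind them, 1 of 10 tested fell, Fcgr2b (-0.34, log2), an inhibitory Fc receptor, while 5.21% of all genes fell. Pigr, the receptor that carries polymeric IgA and IgM across epithelia, was at 2980 ± 241 (SD, n = 5) CPM in chow and 3348 ± 293 (SD, n = 15) in HFD mice, a log2 fold change of 0.17 (adjusted p = 0.219, edgeR). Of 11 tested genes of survival and homing signals 2 fell, the chemokine Cxcl13 (-2.42), which attracts B lymphocytes, and its receptor Cxcr5 (-1.72). Of 8 tested genes of class switching and germinal centres 3 rose and none fell, among them Ung (0.85, log2) and S1pr2 (0.41), while 4.54% of all genes rose. The adjusted p of Ung was 0.13 without chow mouse 2 (edgeR). Ung acts in DNA repair in all cells. Of the surrogate light chain and early B cell genes 2 were tested and none was called.

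Lists for other cell types were read beside these. None of 10 Kupffer cell genes, 2 tested neutrophil genes and 8 hepatocyte genes was called. Of the red blood cell genes 1 of 7 rose (Alas2, 0.71, log2), while 4.54% of all genes rose. Of the exocrine pancreas genes 1 of 2 tested rose (Cela1, 0.77) and of the gut epithelium genes 1 of 3 tested (Fabp2, 1.21). Amy2b, Cdx1, Cdx2 and Reg3b were at 0 in all mice.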

How the data were processed

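Liver mRNA of 20 mice was sequenced by the authors on a NovaSeq with strand-specific 50-base paired reads, trimmed with BBDuk, aligned with HISAT2 1.2.1 and counted per Ensembl 101 gene with featureCounts 1.4.6-p1. The deposited tables hold raw counts and TPM values, which the authors made from these reads. The strand and multi-mapping settings of the counting are not given in the sources used here.

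Counts were tested with edgeR 4.0.16 (TMM, filterByExpr with a minimum count of 10, quasi-likelihood test, R 4.3.3), with Benjamini-Hochberg adjustment over all genes tested and a threshold of 0.05. The scripts were tested on simulated data. Composition was compared with exact 2-sided permutation tests over mice (scipy 1.17.1). Relatives of V genes were found with blastn 2.17.0 in GENCODE M21, and reference names of 3 members without a symbol came from there. Shares of single mice have Wilson 95% intervals. Counted reads ranged from 42526234 to 70266136 per library.

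Named genes were all constant genes and Jchain, the leading V genes of each mouse, the most abundant V genes, up to 10 called members with the largest fold changes in a comparison, and called or abundant genes of the lists. Alternatives were DESeq2 1.42.0 and its size factors, a robust fit, limma 3.58.1 on log2(TPM + 1) for genes with a mean of at least 0.5 TPM, no count filter, all 4 groups in 1 fit, mouse 31 as beef, no pseudogenes, and each mouse left out. In the count table all 151 members were annotated as V, constant or protein coding genes and none as a pseudogene. Members and lists were chosen with earlier results of these data known. Each library is 1 mouse, so the tests took mice as replicates. The study weighed food by cage, and the labels name no cages, so effects of a shared cage were not tested. Values of some listed genes are not reported here.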

Additional observations from a re-analysis of the deposited data

Results flagged for a closer look

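In each diet group the highest and the lowest mouse were compared with the others by their gap (Dixon's criterion at 95%), over 24 measures and 96 groups of mice. There were 18 flags, of which 11 were for chow mouse 2, and chance flags about 1 in 20 groups.

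Chow mouse 2 was flagged for the summed CPM of heavy constant genes (293, against 22.7 to 42.7 in the other chow mice), light constant genes (106, against 10.1 to 17.3), Jchain (35.3, against 2.62 to 3.86), heavy V genes (93.3, against 6.62 to 12.8), kappa V genes (165, against 14.2 to 17.1), lambda V genes (8.35, against 1.1196 to 1.388) and all members (702, against 58.7 to 91.0). It was also flagged for the CPM of Ighm (280), Ighg2b (5.50), Igkc (98.0) and Iglc1 (2.13). These measures overlap and come from 1 library.

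Among isotypes, beef mouse 35 was flagged for a high Ighg2c (3.63 CPM, against 0.235 to 0.781) and a low Ighm (9.12 CPM, against 14.2 to 15.2). High Ighg1 was flagged in chow mouse 10 (4.71 CPM, against 0.226 to 0.784) and in salmon mouse 23 (0.947 CPM, against 0.0911 to 0.396), and high Ighg3 in chow mouse 7 (1.123 CPM, against 0.0915 to 0.383). Iglc2 was flagged in beef mouse 32 (0.506 CPM, against 0.380 to 0.395), and the lambda share of light constant counts in salmon mouse 31 (31.4%, against 11.8 to 18.1%), the mouse whose label and column header differ.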

How the results depend on the processing

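No value that passed its threshold changed sign under an alternative, but 60 of 1967 values did, in 24 of 99 results (8 single genes and 16 others), none of them past the threshold. Without chow mouse 2, Igkv5-39 (-0.18 to 0.56, log2), Igkv4-68 (-1.46 to 0.55), Igkv3-2 (-0.68 to 0.70) and Ighv1-22 (-0.71 to 0.42) turned in HFD versus chow, as did the share of the leading heavy V gene (-0.349 to 1.92 percentage points). The summed level in salmon versus beef turned from -0.17 to 0.26 (log2) with mouse 31 as beef. Of members called in HFD versus chow, 33 in the main test, there were 71 when all genes with a count were tested and 18 to 35 with 1 mouse left out, the 18 without chow mouse 2. Fishmeal versus chow had 16 calls, with 34 over all genes with a count, 29 with all 4 groups in 1 fit, 10 in the robust fit, 6 with limma on TPM, and 3 to 16 with 1 mouse left out (7 without chow mouse 2 or chow mouse 7, 8 without fishmeal mouse 12 or 16, 4 without 13, 3 without 14, 5 without 20). Salmon versus chow had 18 calls, with 42, 28, 11 and 6 in the same order, 9 with mouse 31 as beef, and 5 to 19 with 1 mouse left out (10 without chow mouse 2, 11 without chow mouse 7 or salmon mouse 22, 8 without 23 or 27, 5 without 25, 6 without 26, 9 without 31). Beef versus chow had 2 calls, with 11, 15, 1 and 1 in that order, 18 with DESeq2, 10 with mouse 31 as beef, and 0 to 2 with 1 mouse left out (0 without chow mouse 7 or beef mouse 39 or 40, and 1 without chow mouse 2 or 5 or beef mouse 32 or 35). The difference of the summed level between fishmeal and beef was -0.62 (log2), and -0.39 with mouse 31 as beef. Some of these alternatives use fewer samples or another set of genes, and others change only the method or the label of mouse 31. The causes of the shifts were not tested. Apart from the shares given above for HFD versus chow, shares of all genes called under these alternatives are not reported here. DESeq2 called 22 members in HFD versus chow, and gave no adjusted p for 11. No paired analysis was possible because mouse numbers are not shared between groups. Few counts limit the V genes: 102 members were not tested.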
